A study of Mus musculus with 105 samples.

Results

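Expression of the S12N-SD2 fusion protein was the labelled difference between the 2 mouse embryonic stem cell lines compared here. Both lines came from E14TG2a cells, carried FKBP12 knocked in at Rbbp5, which makes RBBP5 degradable by dTAG-13, and were knocked out for Suz12. One line is called RS below and the other, which also expressed S12N-SD2, is called RS + S12N-SD2. Both had received 0.1% DMSO, the vehicle of dTAG-13, for 24 h, so the tagged RBBP5 was not targeted for degradation. Each line gave 3 libraries, and these 6 of the 105 samples of the series were chosen by genotype and treatment, with no measured value used. The series asks what single histone modifications do in the repression of transcription. The line with tagged RBBP5 and intact Suz12 (R) in DMSO shows the level in a line that was not knocked out. RS and RS + S12N-SD2 given 500 nM dTAG-13 for 24 h repeat the comparison in other libraries. S12N is SUZ12 without its C-terminal VEFS domain, and the labels do not spell out SD2. Each genotype was 1 line, so the effect of the fusion and other differences between the lines cannot be told apart, and the labels do not say whether the 3 libraries came from separate cultures, so the p-values measure the spread between these samples. Poly(A) RNA was sequenced after growth in serum with LIF.

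SUZ12 is a core subunit of PRC2, the Polycomb complex that deposits H3K27me3 on developmental genes, and its C-terminal VEFS domain is needed to activate the methyltransferase EZH2 in the complex. The N-terminal part of SUZ12 binds the accessory subunits that bring the complex to chromatin. In embryonic stem cells without PRC2, genes of later lineages are expressed out of place. Primitive endoderm is the extraembryonic lineage that separates from the inner cell mass. It is led by the transcription factors GATA6, GATA4 and SOX17 and lays down a basement membrane rich in type IV collagen and laminin.

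The 6 libraries held between 15272704 and 17784081 counts each, and 15211 genes were tested. Levels are given as CPM, counts scaled to a common library size with TMM factors. Suz12, on chromosome 11 from 79993106 to 80034123, was at 327, 325 and 324 CPM in R. It was at 60.4, 55.3 and 62.2 CPM in RS and at 83.0, 76.5 and 80.3 CPM in RS + S12N-SD2, all below R and with no overlap between the latter 2 groups. The log2 fold change with the fusion was 0.43 ± 0.09 (SE, n = 3 per group; edgeR's quasi-likelihood test, adjusted p = 0.000969), and gene counts do not separate reads of the fusion from those of the disrupted gene. Rbbp5, the tagged COMPASS subunit, did not pass (0.11 ± 0.09, adjusted p = 0.434), nor did Setd2, the gene of an H3K36 methyltransferase (-0.01 ± 0.11, adjusted p = 0.961). At an adjusted p under 0.05, 1983 genes, 13% of those tested, were higher with the fusion and 2274, 14.9%, were lower. Of these, 351 higher and 605 lower genes changed at least 2-fold, and the median over all genes was 0. When the spread was estimated from the 6 libraries alone in place of all 18 of the dataset, 3606 genes were higher and 3630 lower.

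Among the 29 gene lists described, markers of the primitive endoderm had the lowest median. Of 31 markers measured, 28 fell and 0 rose, and 26 of the 28 fell at least 2-fold and 19 at least 4-fold. Their median log2 fold change was -2.47, beside a median of 0 over all genes and 14.9% of all genes lower. All 3 libraries of RS + S12N-SD2 lay below all 3 of RS for 28 of the markers, an ordering found for 27.2% of all genes tested, and above them for 1, an ordering found for 26.4%. The summed level of the markers was 1821 to 1897 CPM in R, 10300 to 10760 in RS and 2626 to 2687 in RS + S12N-SD2. In bulk RNA, fewer cells of a type and less of its RNA per cell cannot be told apart.

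**Figure D1:**
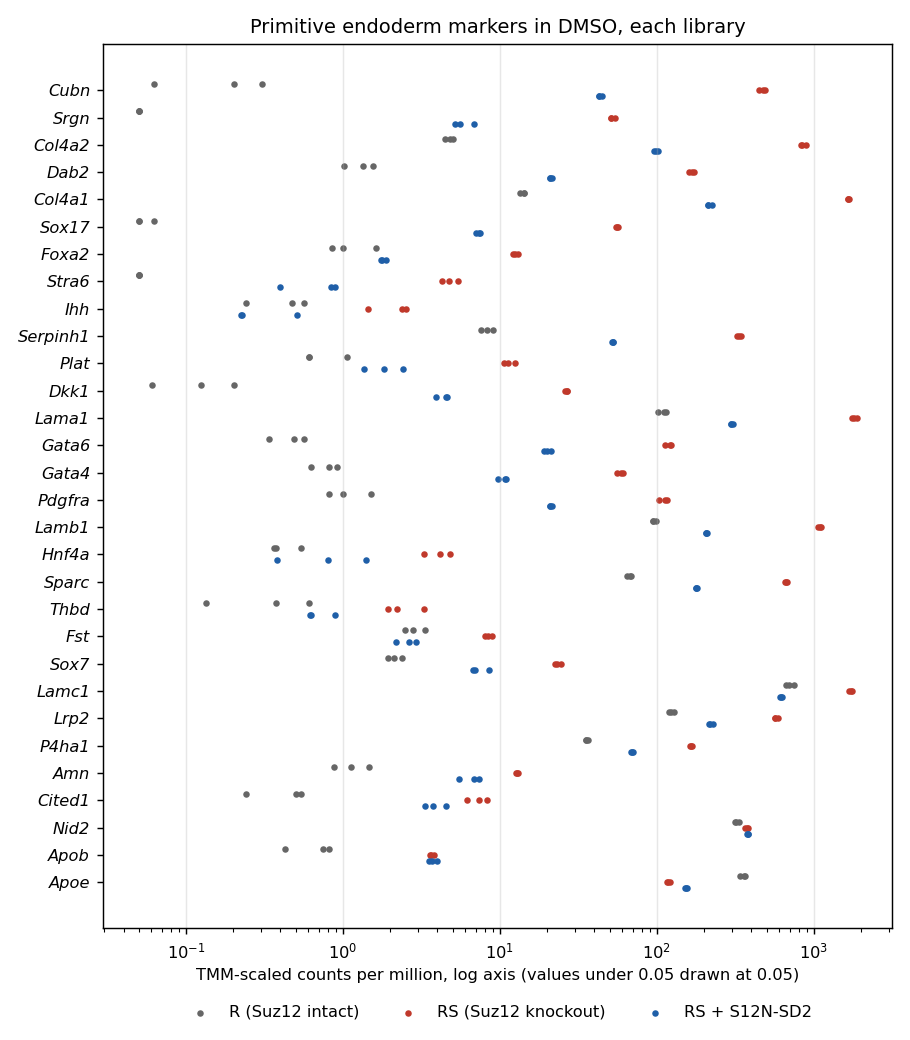
Level of 30 of the 31 primitive endoderm markers measured (horizontal axis, CPM on a log axis) in the 3 DMSO libraries of R, RS and RS + S12N-SD2, ordered by fold change; points are single libraries and values under 0.05 are drawn at 0.05. For the markers at the top, RS + S12N-SD2 lies between R and RS and far below RS, while Nid2 and Apob overlap with RS at the bottom.

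The transcription factors that lead the lineage fell by similar amounts. Gata6, on chromosome 18 from 11052510 to 11085636, was at 123, 122 and 113 CPM in RS and at 19.97, 21.2 and 19.1 CPM with the fusion, against 0.562, 0.486 and 0.338 CPM in R. The groups did not overlap, and the log2 fold change was -2.57 ± 0.09 (edgeR's quasi-likelihood test, adjusted p = 1.42e-12). Gata4, on chromosome 14 from 63198914 to 63271712, was at 60.5, 59.03 and 55.4 CPM in RS and at 9.76, 10.8 and 11 CPM with the fusion (-2.47 ± 0.09, adjusted p = 2.19e-12). Sox17, on chromosome 1 from 4490928 to 4497426, was at 54.8, 56.6 and 55.3 CPM in RS and at 7.07, 7.38 and 7.44 CPM with the fusion (-2.93 ± 0.08, adjusted p = 6.50e-14). All 3 factors thus stayed above their levels in R, which did not reach 1 CPM in any library. Foxa2 fell by 2.79 on the log2 scale and Sox7 by 1.66. Pdgfra, the receptor tyrosine kinase that marks the early lineage, was at 116, 113 and 104 CPM in RS and at 20.9, 20.7 and 21.4 CPM with the fusion (-2.40 ± 0.09, adjusted p = 2.23e-12).

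Genes of the basement membrane and of endocytic uptake fell as well. Col4a1 and Col4a2 encode chains of type IV collagen and lie head to head on chromosome 8, Col4a1 from 11198423 to 11312889 and Col4a2 from 11312805 to 11449287. Col4a1 was at 14.2, 14.2 and 13.4 CPM in R, at 1639, 1685 and 1643 CPM in RS and at 212, 224 and 211 CPM with the fusion (-2.94 ± 0.07, adjusted p = 4.69e-15). Col4a2 was at 841, 889 and 826 CPM in RS and at 99.1, 102.2 and 96.1 CPM with the fusion (-3.10 ± 0.05, adjusted p = 7.82e-17). The 2 collagens thus fell together, to levels that remained above R in every library. The laminin chains Lama1 (-2.59 ± 0.14) and Lamb1 (-2.39 ± 0.07) also fell, and Lamc1 (-1.48 ± 0.17) fell to 615, 627 and 604 CPM, below its 746, 669 and 698 CPM in R. Cubn, an endocytic receptor of the visceral endoderm, was at 476, 486 and 446 CPM in RS and at 42.5, 42.9 and 44.97 CPM with the fusion (-3.43 ± 0.09, adjusted p = 4.91e-14), against 0.0624, 0.304 and 0.203 CPM in R. Dab2, the adaptor of that receptor, fell by 2.98 on the log2 scale, its partner Lrp2 by 1.38 and the membrane anchor Amn by 0.98. The 3 markers that did not pass were Nid2 (0.02 ± 0.11), a basement membrane glycoprotein that was nearly as high in R as in RS, and the lipoprotein genes Apob (0.03 ± 0.18) and Apoe (0.38 ± 0.20), which was highest in R.

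Promoters of genes that did and did not follow the fall are shown to compare their content of CG, the dinucleotide whose density marks the promoters to which PRC2 is usually recruited. The 250 bases upstream of the start, from RefSeq on GRCm38.p6, are given in the direction of transcription with every CG in capitals. The start is that of the RefSeq promoter table, which for Pdgfra lies inside the gene's annotated extent. Cubn (chr2:13491877-13492126, minus strand) and Pdgfra (chr5:75152001-75152250, plus strand) fell, Hoxd13 (chr2:74667975-74668224, plus strand) fell by only 0.27 on the log2 scale, and Meg3 (chr12:109540746-109540995, plus strand) rose.
Cubn: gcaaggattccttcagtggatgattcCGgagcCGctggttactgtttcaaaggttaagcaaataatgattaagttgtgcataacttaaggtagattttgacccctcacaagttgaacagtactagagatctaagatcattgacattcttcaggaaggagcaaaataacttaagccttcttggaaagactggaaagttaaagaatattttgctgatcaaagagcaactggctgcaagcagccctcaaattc
Pdgfra: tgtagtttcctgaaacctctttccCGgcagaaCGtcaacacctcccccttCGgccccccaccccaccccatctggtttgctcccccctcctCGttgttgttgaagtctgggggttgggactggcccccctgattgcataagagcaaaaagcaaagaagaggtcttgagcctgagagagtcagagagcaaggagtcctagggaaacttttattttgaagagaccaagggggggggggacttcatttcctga
Hoxd13: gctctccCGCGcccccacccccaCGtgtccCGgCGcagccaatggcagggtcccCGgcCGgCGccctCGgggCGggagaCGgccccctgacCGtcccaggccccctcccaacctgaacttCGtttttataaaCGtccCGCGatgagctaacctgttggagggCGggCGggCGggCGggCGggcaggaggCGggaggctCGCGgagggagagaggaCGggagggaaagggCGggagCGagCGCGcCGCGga
Meg3: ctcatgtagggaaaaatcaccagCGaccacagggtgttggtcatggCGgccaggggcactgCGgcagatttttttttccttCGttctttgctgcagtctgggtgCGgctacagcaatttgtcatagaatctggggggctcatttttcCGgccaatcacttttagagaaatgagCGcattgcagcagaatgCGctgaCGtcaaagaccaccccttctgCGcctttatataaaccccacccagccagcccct
The count of CG was 2 for Cubn, 4 for Pdgfra, 31 for Hoxd13 and 10 for Meg3, beside a median of 15 over the 11572 tested genes with an upstream sequence. For the 18 primitive endoderm markers that fell and had a sequence, the median was 8.5 (quartiles 4 and 17). It was 11 for the 460 genes at least 2-fold lower and 8 for the 241 at least 2-fold higher. Both classes of changed genes therefore had a lower median than all genes tested. For the 18 Hox genes with a sequence the median was 12.5, so the 31 of Hoxd13 does not stand for its list. Among genes raised by Suz12 knockout in another dataset, described below, it was 14 for the 379 that fell. It was 12 for the 522 that did neither and 12 for the 135 that rose. The letters GATAA, or TTATC on the other strand, the core bound by GATA factors, stood upstream of 2 of those 18 markers and of 14.3% of all tested genes. These are descriptions of a short window, and binding was not measured.

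Genes that respond to loss of Suz12 in other libraries were then taken from the HP1 dataset of the series, in which an untagged Suz12 knockout was compared with wild type. Of 1390 measured genes that were at least 2-fold higher in that knockout, 500 (36%) fell with S12N-SD2, 186 (13.4%) rose and 704 did neither, with a median of -0.19. The share that fell, beside 14.9% of all genes, was 33.6% among the 730 genes raised 2 to 4-fold by that knockout, 35.1% among the 499 raised 4 to 16-fold and 49.7% among the 161 raised 16-fold or more. The medians of these classes were -0.13, -0.19 and -0.58. Among the 500 that fell, 277 fell at least 2-fold, and 319 still had at least 2 times their mean level in R. Of the 234 measured genes that were at least 2-fold lower in that knockout, 87 (37.2%) rose with the fusion and 14 (5.98%) fell, beside 13% of all genes higher, with a median of 0.29. The 31 endoderm markers include 22 of the raised genes, of which 21 fell.

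**Figure D2:**
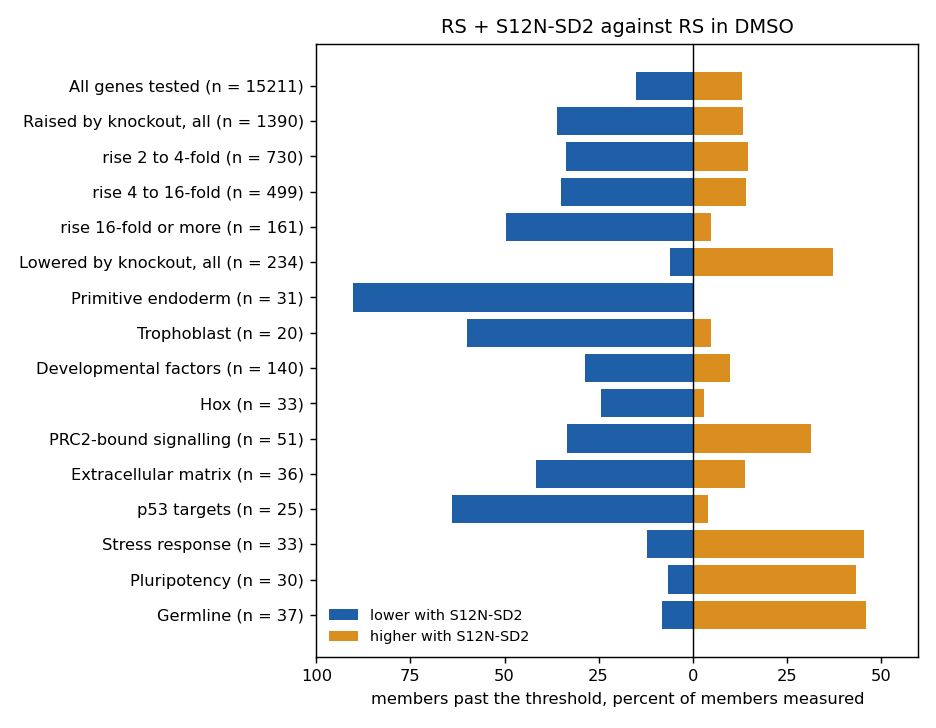
Percent of the measured members of each gene list that passed the threshold as lower (left, blue) or higher (right, orange) in RS + S12N-SD2 than in RS; n is the number of members measured. The top bar gives all genes tested, at 14.9% lower and 13% higher, and the primitive endoderm list reaches 90.3% lower.

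Developmental regulators that PRC2 is known to bind moved less as a class than the endoderm markers. Of 140 developmental transcription factors measured, 40 fell (28.6%, beside 14.9% of all genes) and 14 rose (10%, beside 13%), with a median of -0.16. Without the 4 of them that are also endoderm markers, 36 of 136 fell and 14 rose, with a median of -0.15. Foxq1, on chromosome 13 from 31558170 to 31560976, was at 86.4, 96.2 and 89.1 CPM in RS and at 11.4, 10.1 and 10.4 CPM with the fusion (-3.09 ± 0.08, edgeR's quasi-likelihood test, adjusted p = 9.12e-15). Foxf2, a regulator of mesenchyme, fell by 2.79 on the log2 scale and Runx1, a regulator of blood formation, by 2.06. Zfhx4 was at 1.40, 1.40 and 0.575 CPM in RS and at 0, 0 and 0.127 CPM with the fusion, from 59 and 2 counts. The log2 ratio of its counts was -4.85, with a 95% counting interval from -7.92 to -2.93.

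Hox genes, the textbook targets of Polycomb repression, changed by less than the endoderm markers in the median. Of 33 measured, 8 fell (24.2%, beside 14.9% of all genes), 1 rose and 24 did not pass, and the median was -0.38. All 3 fusion libraries lay below all 3 of RS for 15 of the 33, beside 27.2% of all genes. Without replicate 2 of the fusion line, 5 fell. All 33 were higher in RS than in R. Hoxd13, on chromosome 2 from 74668225 to 74671603, was at 3.37, 2.55 and 3.85 CPM in R, at 36.6, 36.0 and 37.8 CPM in RS and at 29.8, 29.6 and 32.2 CPM with the fusion. Its groups did not overlap, but the change was small (-0.27 ± 0.08, adjusted p = 0.0129) and lost its call when 1 of 3 of the 6 libraries was left out (adjusted p 0.0535 to 0.0594). Hoxa10 was at 18.6, 19.2 and 18.7 CPM in RS and at 14.03, 13.2 and 12.9 CPM with the fusion (-0.50 ± 0.10, adjusted p = 0.000745). Hoxa11 (-0.38 ± 0.11) and Hoxd11 (-0.58 ± 0.11) fell by similar amounts, and Hoxb4, which was under 4 CPM in RS, fell by 1.41. Hoxa5 had 77 counts in RS and 28 with the fusion (log2 ratio -1.42, interval -2.10 to -0.78). Hoxc12, the 1 that rose (0.84 ± 0.26), lies on chromosome 15, whose genes were higher as a whole in the fusion line.

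Other lists of lineage genes had members in both directions, to be read beside the 14.9% of all genes lower and 13% higher. Of 20 trophoblast markers measured, 12 fell (60%) and 1 rose, with a median of -0.68. Without the 3 on chromosome 15, 10 fell and 1 rose, with a median of -0.42. Their summed level was 589 to 641 CPM in R, 1896 to 2014 CPM in RS and 891 to 895 CPM with the fusion. Krt8 and Krt18, keratins of simple epithelium that primitive endoderm makes too and whose genes lie on chromosome 15, fell by 1.49 and 1.33 on the log2 scale, and the paternally expressed placental gene Peg10 fell by 1.41. Cdx2, the factor that specifies trophectoderm, was at 7.77, 6.21 and 5.87 CPM in RS and at 3.65, 3.04 and 2.67 CPM with the fusion (-1.08 ± 0.20, adjusted p = 0.000443). Tfap2c was the marker that rose (0.73 ± 0.07). Of 51 PRC2-bound signalling genes, 17 fell (33.3%) and 16 rose (31.4%), with a median of 0.09. Those that fell include the secreted Wnt antagonist Dkk1 (-2.61 ± 0.10), Wnt4 (-2.88 ± 0.32), Bmp2 (-2.21 ± 0.20) and Bmp6 (-1.85 ± 0.15). Of 36 extracellular matrix genes, 15 fell (41.7%) and 5 rose, with a median of -0.27, or of -0.41 without the 2 on chromosome 15, led by the secreted glycoprotein Thbs1, which was at 48.3, 48.99 and 49.1 CPM in RS and at 4.91, 4.22 and 4.77 CPM with the fusion (-3.40 ± 0.10, adjusted p = 1.37e-13). Of 40 axon guidance and adhesion genes, 18 fell (45%) and 8 rose. Of 22 mesoderm markers 6 fell (27.3%) and 5 rose. Of 20 neural markers 4 fell, 20%, a share near that of all genes, and 6 rose, among the fallen Nefm, a neurofilament gene at 12.1, 13.6 and 12.7 CPM in RS and 1.03, 1.58 and 0.700 CPM with the fusion (-3.51 ± 0.21, adjusted p = 1.14e-09).

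The named genes with the largest falls, among those whose average log2 CPM was at least 1, were mostly near 0 in R. Glipr1 fell by 3.93 on the log2 scale, the hexokinase-like Hkdc1 by 3.75, the small heat shock protein Cryab by 3.62, the cadherin Cdh6 by 3.57, the growth factor Igf1 by 3.55 and Tfec, a relative of MITF, by 3.54. Igf1 was at 7.77, 7.67 and 7.48 CPM in RS and at 0.685, 0.676 and 0.572 CPM with the fusion, and it had no count in R. Vnn1, a pantetheinase (-3.33 ± 0.15), Tns4, a focal adhesion protein (-3.27 ± 0.14), and Capn6, a calpain without protease activity (-3.26 ± 0.20), followed.

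Of 30 pluripotency genes measured, 13 rose (43.3%, beside 13% of all genes), 2 fell and 15 did not pass, with a median of 0.15 and a range from -0.69 to 0.68. Nanog was at 390.5, 394 and 392.3 CPM in RS and at 497, 479.9 and 473 CPM with the fusion (0.30 ± 0.05, adjusted p = 6.31e-05). Prdm14 rose by 0.40 ± 0.07, and Spp1, a secreted phosphoprotein that primitive endoderm also makes, fell (-0.35 ± 0.07). Their summed level was 10050 to 10120 CPM in R, 9076 to 9154 CPM in RS and 9736 to 9874 CPM with the fusion.

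The largest rises were in the Dlk1-Meg3 imprinted domain of chromosome 12, whose long noncoding RNAs are made from the maternal copy. Meg3, from 109540996 to 109571729, was at 229.6, 222 and 226 CPM in R, at 0.216, 0 and 0.0575 CPM in RS and at 114, 116 and 117 CPM in RS + S12N-SD2. It was thus all but absent from RS, with 5 counts over 3 libraries, and present in both other lines at levels that did not overlap. The log2 ratio of its counts in RS + S12N-SD2 and RS was 10.24, with a 95% counting interval from 9.02 to 11.86 (adjusted p = 2.53e-16). Rian was at 243, 246.5 and 231 CPM in R, at 0.162, 0.487 and 0.230 CPM in RS and at 110.6, 118 and 117 CPM with the fusion (log2 ratio 8.65, interval 7.93 to 9.49). From R to RS the log2 fold change was -11.1 for Meg3 and -9.67 for Rian. In the untagged Suz12 knockout of the HP1 dataset it was -1.21 ± 0.08 and -1.01 ± 0.07. The near-absence in RS was thus not shared by that knockout. Mirg had 0 counts in RS and 380 with the fusion, a log2 fold of at least 7.02 against a floor of 3 counts over the group. Dlk1, made from the paternal copy, was at 7.23, 6.15 and 6.10 CPM in RS and at 16.3, 17.97 and 18.7 CPM with the fusion (1.44 ± 0.12, adjusted p = 4.77e-08). Rtl1 overlaps Meg3 and Rian, and the counting is not stated to use strand, so its reads and theirs cannot be told apart. In dTAG-13, Meg3 was at 0.184, 0.177 and 0.316 CPM in RS and at 100.5, 97.6 and 102.2 CPM with the fusion, so the difference stood with the line in both treatments. Over all 42 imprinted genes measured, 12 rose (28.6%, beside 13% of all genes) and 8 fell (19%, beside 14.9%), with a median of 0.02.

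**Figure D3:**
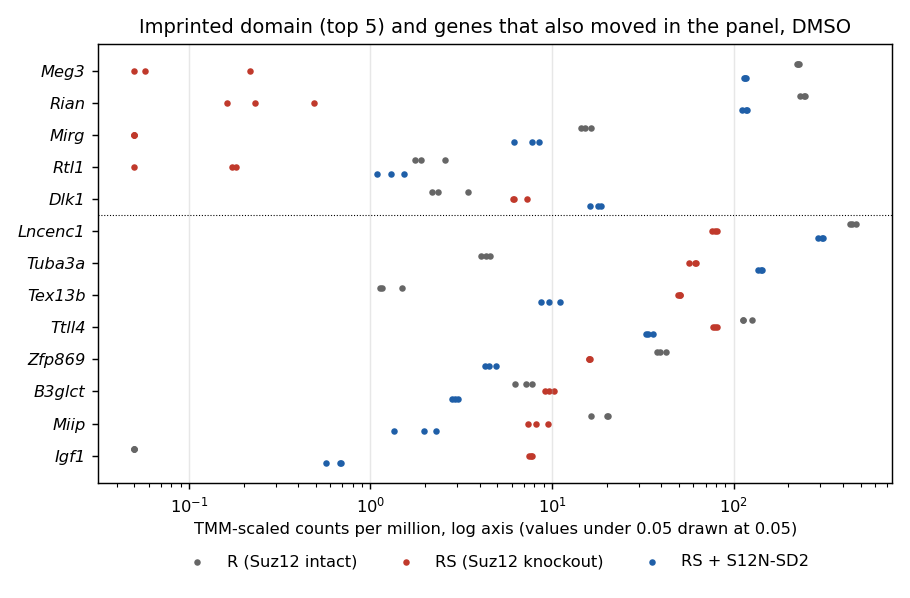
Level in each DMSO library of R, RS and RS + S12N-SD2 (horizontal axis, CPM on a log axis) for 5 genes of the Dlk1-Meg3 domain, above the dotted line, and 8 genes that also changed at least 2-fold between active and dead S12N-SD2 in the panel; values under 0.05 are drawn at 0.05. Meg3, Rian and Mirg are near the floor in RS, and Ttll4, Zfp869, B3glct and Miip are lower with the fusion than in both other lines.

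Among other genes that rose, Lncenc1, a noncoding RNA abundant in naive embryonic stem cells, was at 474, 437 and 448 CPM in R, at 81.4, 78.6 and 76.1 CPM in RS and at 292, 305 and 309 CPM with the fusion (1.94 ± 0.07, adjusted p = 1.18e-12). The protein phosphatase inhibitor Ppp1r14d rose by 2.15 ± 0.24, the sperm protein gene Zan by 2.14 ± 0.19, the calcium channel gene Cacna1h by 2.03 ± 0.29, the tetraspanin Cd37 by 1.91 ± 0.14, the meiotic kinase Aurkc by 1.86 ± 0.25 and Cyth4, which lies on chromosome 15, by 1.88 ± 0.26. Of 37 germline genes measured, 17 rose (45.9%, beside 13% of all genes) and 3 fell (8.11%, beside 14.9%), with a median of 0.33. On that list 4 of the 37 genes lie on chromosome 15, and without them 13 rose and 3 fell, with a median of 0.22. The meiotic cohesin Smc1b (1.35 ± 0.09) and the recombinase Dmc1 (1.28 ± 0.14) are on that chromosome, and the meiotic chromosome axis protein Hormad1 (1.16 ± 0.22), on chromosome 3, is not. Lefty2, a Nodal antagonist, was at 17.5, 18.99 and 17.8 CPM in RS and at 59.2, 55.4 and 53.2 CPM with the fusion (1.63 ± 0.12, adjusted p = 1.12e-08).

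Genes of chromosome 15 were higher as a whole in RS + S12N-SD2. Over the 432 tested genes of that chromosome whose average log2 CPM reached 2, the median log2 fold change was 0.50, while the medians of the other 19 chromosomes, the autosomes and X, ran from -0.03 to 0.02 over genes chosen the same way. Relative to R, the median was -0.10 to -0.08 in the RS libraries and 0.36 to 0.37 in those with the fusion, and it was 0.34 to 0.38 with the fusion in dTAG-13. Chromosome 15 held 352 of the higher genes, 17.8% of them. Of its 598 tested genes 58.9% were higher and 6.52% lower, beside 13% and 14.9% of all genes. Without chromosome 15, 1631 genes of 14613 were higher and 2235 lower, and the endoderm list lost 1 of its fallen members, Dab2. Genes of chromosome 8 were lower than in R in both knockout lines. Relative to R, their median was -0.64 to -0.61 in the RS libraries and -0.65 to -0.64 in those with the fusion. Outside chromosomes 8 and 15 it was -0.067 to -0.065 and -0.082 to -0.078. Col4a1, Col4a2 and Zfp869 are among the genes on chromosome 8. Copy number was not measured, and the part of either shift in the change of any gene on these chromosomes was not tested.

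**Figure D4:**
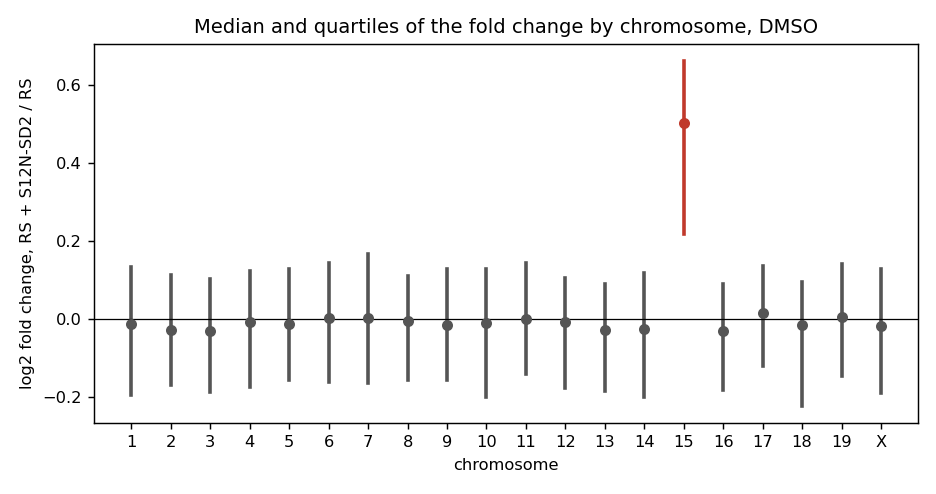
Log2 fold change of RS + S12N-SD2 over RS in DMSO by chromosome, for genes whose average log2 CPM reached 2; points are medians and lines run from the lower to the upper quartile. Chromosome 15, in red, has a median of 0.50 and the others lie near 0.

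Lists of p53 targets and of stress-response genes were read beside the 14.9% of all genes lower and 13% higher. Of 25 p53 targets measured, 16 fell, 1 rose and 8 did not pass, with a median of -0.55. Plk2, a kinase induced by p53, was at 31.0, 28.5 and 31.6 CPM in R, at 90.3, 90.4 and 88.2 CPM in RS and at 30.4, 31.0 and 28.4 CPM with the fusion (-1.58 ± 0.08, adjusted p = 6.94e-11), so that the fusion line and R overlapped. Btg2 (-1.24 ± 0.09), Ccng1 (-0.91 ± 0.06), the p53 ligase Mdm2 (-0.78 ± 0.09) and the cell-cycle inhibitor Cdkn1a (-0.71 ± 0.12) also fell. Of 33 stress-response genes, 15 rose, 4 fell and 14 did not pass, with a median of 0.22. Nupr1 (1.66 ± 0.16), Chac1 (1.30 ± 0.13) and Trib3 (0.88 ± 0.11), targets of the amino acid stress factor ATF4, rose, as did Atf4 itself (1.09 ± 0.07), which lies on chromosome 15, while the immediate early genes Atf3 (-1.40 ± 0.14) and Jun (-1.08 ± 0.12) fell. Of 79 ribosomal protein genes 2 rose and 0 fell.

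The same lines in dTAG-13, in 6 other libraries, gave 2568 higher genes (16.9%) and 2599 lower ones (17.1%). Of the genes higher in DMSO 70.8% were higher there too, which is 54.6% of the genes higher in dTAG-13. The shares for lower genes were 74.8% and 65.5%, and 27 genes were called in opposite directions. The endoderm markers had a median of -2.53, with 27 lower and 1 higher, and Hox genes had a median of -0.06, with 5 lower and 6 higher. The effect itself differed between the treatments, by the interaction term of edgeR's quasi-likelihood test, for 314 genes, 2.06% of those tested, 125 with a higher and 189 with a lower effect in dTAG-13. Leaving out single libraries of either line gave 63 to 102 and 109 to 190. Among these were 5 of the 25 p53 targets and 5 of the 33 stress-response genes, Sesn2 being on both lists, and in each of them the effect was more positive in dTAG-13. Plk2 fell by 0.63 on the log2 scale in dTAG-13, a difference of 0.95 from DMSO (adjusted p = 0.000254), and Ddit4l was at -0.05 there after -1.22 in DMSO (difference 1.17, adjusted p = 0.000312). The median of the p53 targets was -0.14 in dTAG-13, and the effect in dTAG-13 lay above that in DMSO for 22 of the 25, as it did for 8284 of all 15211 genes.

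**Figure D5:**
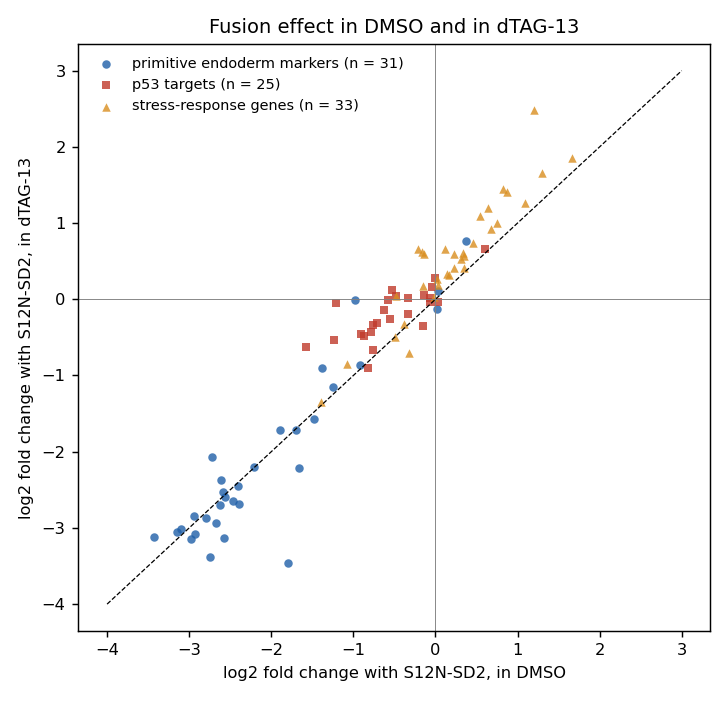
Log2 fold change of RS + S12N-SD2 over RS in DMSO (horizontal) and in dTAG-13 (vertical) for 31 primitive endoderm markers, 25 p53 targets and 33 stress-response genes; each point is a gene and the dashed line marks equal changes. The endoderm markers lie along the line, and 22 of the p53 targets lie above it.

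In the fusion panel of the series, made in Suz12 knockout cells without the RBBP5 tag, active S12N-SD2 was compared with a version that the titles call dead, in 3 libraries each. Suz12 counts were not matched, at 122.6, 123.8 and 104.8 CPM with the active fusion and 203, 262 and 216 CPM with the dead one. The log2 fold change was -0.96 ± 0.14 (edgeR's quasi-likelihood test, adjusted p = 0.00128). Setd2 (-0.39 ± 0.07) and Rbbp5 (-0.31 ± 0.06) were lower with the active fusion too. Without a replicate block, 887 of 15624 genes in the panel were higher (5.68%) and 1000 lower (6.4%) with the active fusion. A block gave 2129 and 2335, and the calls and overlaps below are those without it. The counts of 887 and 1000 fell to 345 and 351 without active replicate 1 and to 365 and 436 without active replicate 3. They fell to 409 and 481 without dead replicate 1 and to 450 and 534 without dead replicate 2. Over the 12662 genes tested in both, 242 were higher in both, 13.4% of those higher in the RBBP5 lines and 31.9% of those higher in the panel, beside 5.99% and 14.2% of all 12662 genes. The lower genes shared 256, 12.6% and 30.6% of the lists, beside 6.6% and 16% of all genes. Of 1268 genes of the raised Suz12-responsive list measured in the panel, 60 were higher and 189 lower, beside 5.99% and 6.6% of all genes. Of 187 on the lowered list, 47 were higher and 6 lower. Of 30 pluripotency genes, 0 were higher and 5 lower, while 13 rose and 2 fell in the RBBP5 lines. Of 33 stress-response genes, 1 was higher and 3 lower, Chac1 and Trib3 among the lower. Of 30 endoderm markers measured in the panel, 1 was higher and 1 lower, with a median of 0.03. Some were already low with the dead fusion, Cubn at 3.7, 5.0 and 3.1 CPM and Gata6 at 6.5, 5.0 and 4.5 CPM. Sox17 was at 4.4, 3.8 and 3.3 CPM there and at 1.9, 2.3 and 2.1 CPM with the active fusion, without overlap. Its log2 fold change was -0.885 ± 0.28, which did not pass (edgeR's quasi-likelihood test, adjusted p = 0.0537). The levels of these 3 genes with the dead fusion are far below those in RS, and whether this limited a fall was not tested. Col4a1 was at 195, 213.5 and 189.9 CPM with the active fusion and at 268, 257 and 249.7 CPM with the dead one (-0.37 ± 0.14, adjusted p = 0.0943). Meg3 was at 28.8, 25.1 and 23.3 CPM and at 19.98, 31.3 and 14.9 CPM, with overlap. The contrast differs from that of the RBBP5 lines, where the control has no fusion. A gene changed equally by the active and the dead fusion would not appear in the panel.

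Genes that changed at least 2-fold in the same direction in both numbered 58, of which 32 were higher and 26 lower. Lncenc1 was at 210, 221.5 and 213 CPM with the active fusion and at 70.9, 86.6 and 78.5 CPM with the dead one (1.45 ± 0.11, adjusted p = 1.15e-05). Acap1 (1.43 ± 0.14), Slc4a5 (1.44 ± 0.12), Arl14epl (2.06 ± 0.13) and Hormad1 were higher in both as well, and so was the testis tubulin gene Tuba3a (1.23 ± 0.09 in the RBBP5 lines and 1.87 ± 0.11 in the panel). The lower genes, singled out after their values were seen, include several that fell below their level in R. B3glct, a glucosyltransferase gene on chromosome 5, was at 7.18, 6.25 and 7.77 CPM in R, at 10.3, 9.13 and 9.66 CPM in RS and at 2.91, 3.04 and 2.80 CPM with the fusion (-1.73 ± 0.13, adjusted p = 2.52e-08). In the panel it was at 0.790, 0.843 and 0.403 CPM with the active fusion and at 17.1, 22.3 and 17.4 CPM with the dead one (-4.79 ± 0.22, adjusted p = 1.08e-07). Miip, on chromosome 4, was at 16.5, 20.2 and 20.3 CPM in R, at 7.34, 9.55 and 8.17 CPM in RS and at 2.28, 1.35 and 1.97 CPM with the fusion (-2.16 ± 0.22, adjusted p = 7.59e-07), and it fell by 3.53 on the log2 scale in the panel. The zinc finger gene Zfp869 fell by 1.81 and by 2.56, and the tubulin modifying enzyme gene Ttll4 by 1.20 and by 1.35. Tex13b, on chromosome X, was at 50.7, 49.1 and 50.9 CPM in RS and at 8.67, 11.1 and 9.60 CPM with the fusion, and it fell by 2.36 and by 3.24. Igf1 was lower in the panel too (-1.34 ± 0.34).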

How the data were processed

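Whole-number counts per gene, as deposited by the authors, were used. Per the submitters' processing notes, reads of the RBBP5 lines were processed with Trim Galore 0.6.7, HISAT2 2.2.1 and featureCounts 2.0.8 on mm10, those of the panel with Trim Galore 0.4.5, STAR 2.4 and HTSeq 0.9.1, and those of the HP1 dataset with Trimmomatic and HISAT2. Strand settings are not given in the sources used here. The 3 datasets were normalised and tested separately.

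Genes kept by filterByExpr were scaled by TMM and tested with the quasi-likelihood test of edgeR 4.0.16 (limma 3.58.1, R 4.3.3) on all 18 libraries of the 6 groups of the RBBP5 lines, so that the groups share 1 estimate of the spread (biological coefficient of variation 0.0881). P-values were adjusted by the Benjamini-Hochberg method over all genes of a fit, with a threshold of 0.05. A gene with fewer than 30 counts in a group is given as a ratio of counts with an exact 95% interval, and a group without counts was set to a floor of 3 counts. Both cover counting error only. The script was tested on simulated counts. DESeq2 1.42.0, other size factors, no filter, a replicate block, fewer libraries and left-out libraries were the alternatives.

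Of 27179 identifiers 25275 matched a gene symbol. Genes were named by a rule: in each direction the 12 genes that changed most among those whose groups did not overlap and whose mean log2 CPM was at least 1, and up to 4 genes with the smallest p of each list. Others were named as members of lists or as shared with the panel, after their values were seen. The members and lists were chosen with earlier results of these data known. Panel columns were matched to samples by the wording of their names, and 15 columns were not used. Positions are those of GRCm38 (mm10). In the RBBP5 lines and the HP1 dataset, libraries with the same replicate number did not deviate together. The values of 1 endoderm marker are not reported here.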

Additional observations from a re-analysis of the deposited data

Results flagged for a closer look

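The effect of the fusion differed between dTAG-13 and DMSO for 314 genes by the interaction term of edgeR's quasi-likelihood test (adjusted p under 0.05), and the 19 of them described here were chosen by the rule for named genes, apart from Dlk1. Each value here is the log2 effect in dTAG-13 minus that in DMSO, with 3 libraries per group. Among p53 targets the difference was 0.95 for Plk2, 0.70 for Btg2, 0.45 for Ccng1 and 1.17 for Ddit4l. Among stress-response genes it was 0.62 for Cth and 0.28 for Psat1, both in the synthesis of amino acids. The cyclins Ccnd1 and Ccnd2 differed in opposite directions, by 0.31 and -0.49. The antigen transporter Tap1 was at 0.87, the surface glycoprotein Thy1 at 0.94 and the imprinted Dlk1 at 0.85. The difference was -0.79 for Thbs1, -0.52 for Fgf10, -0.54 for Id2, -0.52 for Ncam1 and -0.72 for the hypoxia-responsive Ndrg1. Genes that rose in DMSO and rose less in dTAG-13 include Acap1 (-0.95), Arl14epl (-0.61) and Cd37 (-1.0).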

How the results depend on the processing

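No named gene that passed for the fusion in DMSO changed direction under the alternatives run. For the other effects only the numbers of genes called were compared. Leaving out each library in turn gave 1542 to 1745 higher and 1835 to 1948 lower genes for the fusion in DMSO, with 317 to 348 and 588 to 606 at least 2-fold, 1821 to 2139 and 2232 to 2468 in dTAG-13, 4535 to 4568 and 3721 to 3821 for the knockout, and 2744 to 2919 and 2339 to 2506 in the HP1 dataset. The raised Suz12-responsive list then held 446 to 466 lower and 146 to 166 higher genes, the lowered one 73 to 83 higher and 10 to 12 lower, and the endoderm list 28 lower each time. The Hox list held 5 to 8 lower. The interaction was less stable, with 63 to 102 higher and 109 to 190 lower genes against 125 and 189, 222 and 372 by DESeq2, and 83 higher without the filter. The panel gave 345 to 825 higher and 351 to 1073 lower genes. Same-numbered RS and fusion libraries in DMSO had correlations of 0.008, 0.022 and 0, and a replicate block gave 1987 higher and 2249 lower genes. In the panel the correlations were -0.03, 0.31 and 0.092, so by these the numbers do not pair all libraries, and the libraries numbered 2 alone correlated best with their own number. The block there gave 2129 higher and 2335 lower genes. With the RBBP5 lines 458 and 503 were shared, 24.6% and 25.2% of the panel's lists, beside 14.2% and 16% of all 12662 genes. Of 30 endoderm markers 4 were higher and 7 lower with the block, beside 14.7% and 15.8% of all genes. The adjusted p by edgeR's quasi-likelihood test was then 0.00874 for Col4a1 and 0.00729 for Sox17. The fit on 6 libraries gave 3606 and 3630. With responsive lists chosen at 4-fold, which are shorter, 255 of 660 raised genes were lower and 79 higher. Of 34 lowered genes, 11 were higher and 2 lower. The cause of the shifts under the other alternatives was not tested. Among named genes, 7 lost their call under some alternative, Hoxd13 among them, and 11 gained one. Low-count genes such as Zfhx4 are limited by depth.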

Other observations

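The counts in DMSO given here are to be read beside 13% of all genes higher and 14.9% lower. Of 20 interferon-stimulated genes measured, 8 rose, 2 fell and 10 did not pass with the fusion in DMSO. The peptide transporter Tap1 (log2 fold change -1.94) and the light chain of class I molecules B2m (-1.33) were those that fell, and those that rose include the class I regulator Nlrc5 (1.78), Oas2 (1.53) and Ifitm1 (0.96). Of 12 fibroblast markers 3 fell and 3 rose, Acta2 (-2.20) and Thy1 (1.29) being the farthest apart. Of 30 glycolysis and hypoxia genes, 8 rose, 5 fell and 17 did not pass, the collagen prolyl hydroxylases P4ha2 (-1.58) and P4ha1 (-1.25) among those that fell. Among chromatin genes, the PRC2 accessory subunit Phf19 rose (1.27) and the de novo DNA methyltransferase Dnmt3b fell (-0.74). A list of genes on chromosome Y had 6 measured members, of the 7 genes tested on that chromosome. Of these 6, 3 rose, which were Zfy1 (log2 ratio of counts 2.15, interval 1.456 to 2.91), Uba1y (1.04) and Ddx3y (0.20). Ddx3y lost its call without replicate 1 or 2 of either line (adjusted p 0.0714 to 0.122, edgeR's quasi-likelihood test). In the panel all 4 measured members of that list were lower with the active fusion, with a median of -1.09, beside 6.4% of all genes lower there.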
